A study of Mus musculus with 6 samples.

Results

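This report describes the microRNA (miRNA) assays for miR-320, miR-432, miR-484, miR-598 and miR-652 in mouse prefrontal cortex. An assay was taken when its miRNA name was one of these 5, ignoring case, species prefix and arm mark. The rule found 6 of the 750 miRNA assays on the panel. miR-320, miR-432, miR-484 and miR-652 had 1 assay each, and miR-598 had an assay for each arm of its hairpin, mmu-miR-598 and rno-miR-598-5p. The prefixes hsa, mmu and rno name the species an assay was designed on, and the mark # stands for the less abundant strand of a hairpin. Of the 6 assays, 5 belong to pool A of the panel and 1, MMU-MIR-432, to pool B.

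The samples were whole prefrontal cortex of 6 untreated male mice aged 5 months, 1 sample per mouse. The control group was 3 wild-type C57BL/6J mice. The other group was 3 mice with the genotype BTBR T+ Itpr3tf/J, an inbred strain studied for its autism-like behaviour. The labels of the BTBR mice also give C57BL/6J as their strain background, and the sources used here do not resolve this. In bulk tissue, fewer cells of a type and less RNA per cell cannot be told apart. Each assay was 1 real-time PCR per sample on the TaqMan OpenArray rodent panel. The readout is the threshold cycle, when the fluorescence passes a set level. A lower threshold stands for more RNA, and 1 cycle is taken as a 2-fold step. A value of 40 was read as undetermined, meaning that no threshold was reached.

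An miRNA is a short RNA cut from a hairpin and loaded into an Argonaute protein, which it guides to messenger RNAs. Pairing of bases 2 to 8 of the miRNA, its seed, with a target lowers the translation or stability of that target. All 5 miRNAs were named in a study of postmortem cerebellar cortex from people with autism, as recalled and not checked here, which is what links them. miR-484 and miR-320 are unusual in their making. Their hairpins are made without the nuclear enzyme Drosha, from RNA that starts at or near the hairpin itself. In the RefSeq gene table of GRCm38.p6 the miR-320 hairpin lies next to Polr3d and the miR-484 hairpin next to Marf1 and Nde1. The miR-598 hairpin lies within the span of Xkr6, that of miR-652 within Tmem164 on the X chromosome, and that of miR-432 within the imprinted gene Rtl1.

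The mature sequences below are those of the miRNAs on which the results turn, miR-484 and miR-652, and of miR-432, which gave no reading. They are the mouse sequences of RefSeq on GRCm38.p6, where 3 of the 5 hairpin genes were found. Sequences of miR-320 and miR-598 are not shown. The seed is in capitals and all 4 lie on the plus strand. mmu-miR-484 is at chr16:14159630-14159651, mmu-miR-652-3p at chrX:142739060-142739080, mmu-miR-652-5p at chrX:142739020-142739043 and mmu-miR-432 at chr12:109595006-109595028.
mmu-miR-484: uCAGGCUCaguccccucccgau
mmu-miR-652-3p: aAUGGCGCcacuaggguugug
mmu-miR-652-5p: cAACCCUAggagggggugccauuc
mmu-miR-432: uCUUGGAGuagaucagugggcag
The 4 seeds differ from each other, and each is shared with 0 of the other mature mouse sequences in the table, which holds 1738 in all. G and C made up 63.6% of the bases of miR-484, 57.1% of miR-652-3p, 62.5% of miR-652-5p and 52.2% of miR-432, against a median of 52.2% over the table. The assay hsa-miR-652 carries no arm mark, which is the older name of the arm now called 3p.

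The hairpins of miR-484 and miR-652 are shown with the mature arms in capitals, because they show what a single assay can see. The miR-484 hairpin (chr16:14159626-14159692, plus strand) has 1 annotated mature arm, close to its 5′ end. The miR-652 hairpin (chrX:142739000-142739097, plus strand) has both arms annotated, and the panel carried an assay for miR-652 under 1 name.
Mir484: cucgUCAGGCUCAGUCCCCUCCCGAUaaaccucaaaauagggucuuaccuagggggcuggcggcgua
Mir652: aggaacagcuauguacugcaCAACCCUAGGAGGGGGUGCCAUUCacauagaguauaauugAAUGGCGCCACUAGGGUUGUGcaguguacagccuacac

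Some features of the whole panel bear on every value below. Between 296 and 306 of the 750 assays had a reading in the C57BL/6J samples and between 352 and 409 in the BTBR samples (exact permutation test, two-sided, p = 0.1, the smallest that 3 against 3 allows). In the authors' quantile-normalized table, the median log2 change of the 231 assays tested was -1.13 (BTBR minus C57BL/6J, on the negative of the threshold). A second scale, here called the global mean scale, took raw readings of those cells relative to a sample's average over 189 assays (all with 6 normalized values), and gave a median of -0.18. Across the 189 assays, Pearson's r of BTBR replicate 3 with the C57BL/6J mice was 0.945 to 0.966, and with BTBR replicates 1 and 2 it was 0.938 and 0.918. Tissue identity was checked on marker lists. For these lists, readings under 10 cycles were left out, as in the authors' processing. Of 9 neuronal assays, 5 were detected by this rule in all 6 samples. The summed signal of the list, turned back into a threshold, ran from 10.31 to 12.13 cycles in C57BL/6J and from 10.48 to 10.70 in BTBR. In C57BL/6J replicate 3 the sum left out hsa-miR-138, which read 9.60 cycles there. mmu-miR-138# was left out at 7.805 and 6.385 cycles in C57BL/6J replicates 2 and 3. Of 7 assays for miRNAs of heart, muscle or liver, 3 were detected in all 6 and 3 in none (hsa-miR-208, rno-miR-1# and mmu-miR-133a#). Summed thresholds of 3 red blood cell assays ran from 21.1 to 21.4 in C57BL/6J and from 15.1 to 16.6 in BTBR. Of these, HSA-MIR-144 was read in no sample and hsa-miR-486 in BTBR only (mean 16.16 cycles). mmu-miR-451 had a log2 change of -0.21 on the authors' values and 0.90 on the global mean scale. Summed thresholds of 9 choroid plexus assays ran from 16.7 to 17.8 in C57BL/6J and from 13.04 to 16.5 in BTBR. Among them, mmu-miR-211 was read in no sample and hsa-miR-200b in BTBR only. An assay read in 1 strain only sets no level in the other, so these sums are not read as strain differences. Summed thresholds of 6 endothelial and mural assays ran from 12.6 to 13.9 and from 15.1 to 16.4, with mmu-miR-145# in no sample and hsa-miR-143 in BTBR only. Those of 4 oligodendrocyte assays ran from 23.6 to 24.5 and from 24.7 to 25.9. Those of 7 astrocyte assays ran from 12.7 to 14.01 and from 11.6 to 16.4, and those of 7 assays of blood-derived cells and microglia from 13.3 to 13.8 and from 13.5 to 14.6. The miR-143 and miR-145 assays were in both the astrocyte list and the endothelial and mural list, so the 2 sums share part of their assays. The astrocyte list also held mmu-miR-31, read in BTBR only, with a raw mean of 10.12 ± 1.24 cycles (SD, n = 3) before readings under 10 were left out. The astrocyte sums are therefore not read as a strain difference either. The part of these cell types in the results was not tested.

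The comparison of the strains asked which of these autism-linked miRNAs differ in the BTBR cortex. miR-484 read earlier in BTBR, by 2.94 raw cycles on average, though its difference did not pass the test over all assays. miR-652 was read in every BTBR sample and in 0 of the C57BL/6J samples, in which many spots of control RNAs were undetermined as well. Both arms of miR-598 fell in BTBR on the authors' normalized values, 4.42-fold and 8.08-fold, and neither passed on the global mean scale. On the authors' values 35.5% of the 231 assays tested passed as lower, and their median log2 change was -1.13. miR-320 had raw thresholds within 0.03 cycles of each other on average in both strains. miR-432 was undetermined throughout.

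**Figure D1:**
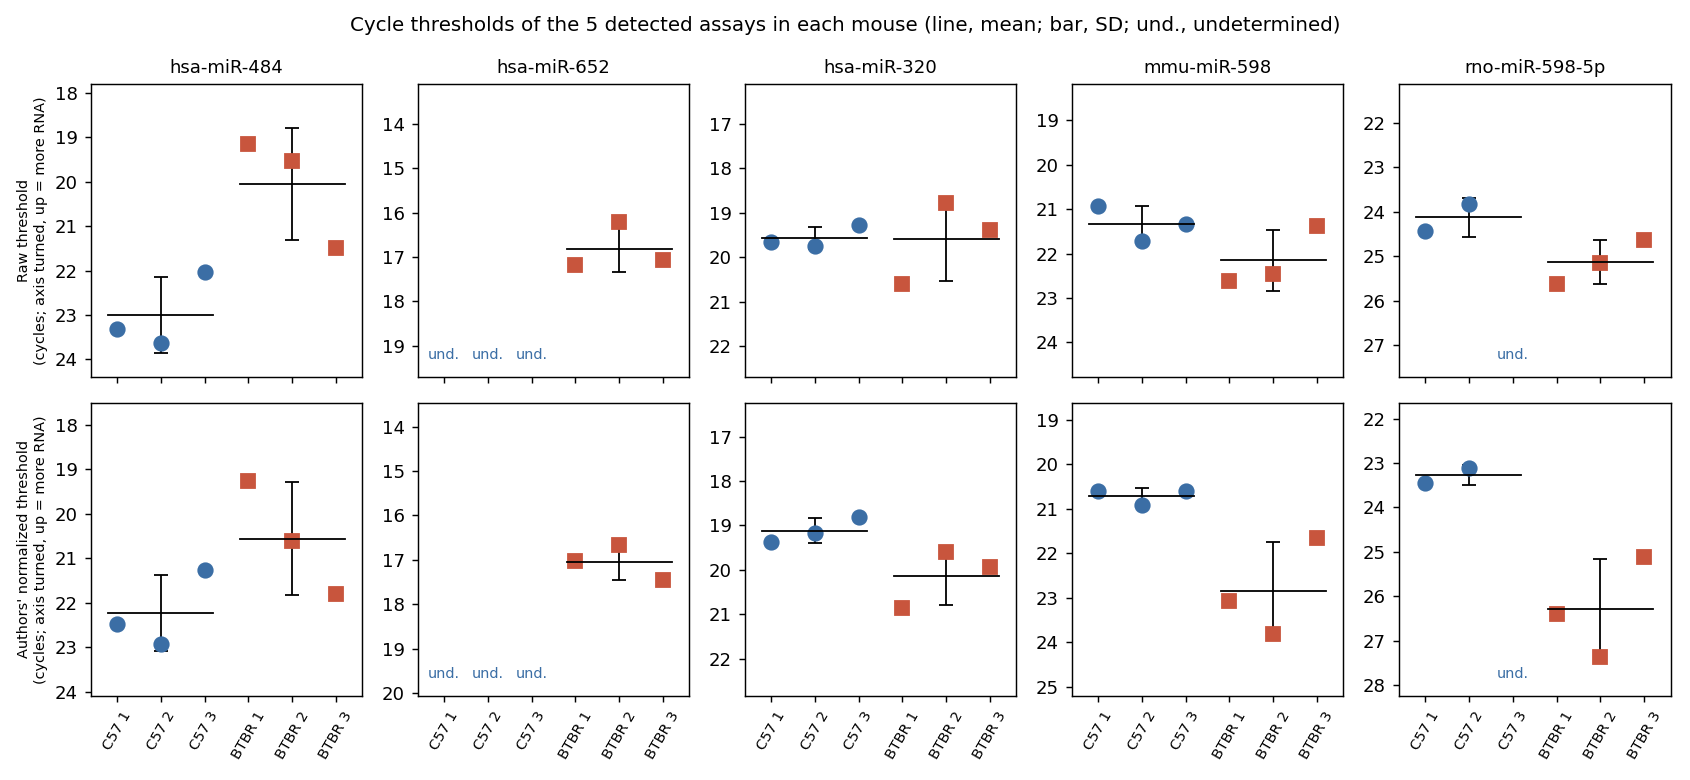
Cycle thresholds (vertical axes, cycles, turned so that up means more RNA) of the 5 assays with a reading in each of the 3 C57BL/6J (circles) and 3 BTBR mice (squares), raw in the upper row and normalized by the authors in the lower row. Lines are means over detected values, bars SD, and "und." marks an undetermined reading; miR-484 is earlier in all BTBR mice in the upper row, and the strains separate for miR-320 and mmu-miR-598 only in the lower row.

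The raw thresholds of hsa-miR-484 (assay 001821) were 23.32, 23.64 and 22.02 cycles in C57BL/6J replicates 1, 2 and 3. In BTBR they were 19.14, 19.53 and 21.49. The 3 BTBR mice all lay on the side of more RNA and the strains did not overlap, with BTBR replicate 3 nearest to the controls. The means were 22.996 ± 0.857 and 20.06 ± 1.26 cycles (SD, n = 3 each; exact permutation test, two-sided, p = 0.1). Of the 237 assays with usable raw readings in all 6 samples, 14.3% likewise showed more RNA in every BTBR mouse with no overlap.

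The authors' normalized thresholds of miR-484 were 22.47, 22.94 and 21.27 cycles in C57BL/6J and 19.26, 20.60 and 21.81 in BTBR. Here BTBR replicate 3 fell inside the range of the C57BL/6J mice. The log2 change was 1.67 with a standard error of 0.77 (95% interval -0.23 to 3.57, limma adjusted p = 0.134). The assay did not pass; over the panel, 1.3% of the 231 assays passed as higher in BTBR. Only 15 of the 231 assays had a larger change, and that of miR-484 lay 2.80 above the median of all assays.

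On the global mean scale the log2 change of miR-484 was 2.76, a 6.77-fold higher level in BTBR (standard error 0.71, 95% interval 1.02 to 4.5, limma adjusted p = 0.0737). It did not pass there either, where 0.433% of assays did. The strains did not overlap on this scale, as was so for 16% of the 231 assays in the same direction. The sign of the change was positive under all 18 alternative settings run, with the change passing in 1 of them. Without BTBR replicate 3 the log2 change on the authors' values was 2.30 (limma adjusted p = 0.0415).

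The assays nearest to miR-484 in profile were found among 234 other assays detected in all 6 samples, by the root mean square difference of the samples' deviations from each assay's own mean. hsa-miR-574-3p was nearest (0.545 cycles), followed by mmu-miR-666 (0.576) and hsa-miR-127 (0.729), against a median of 1.87 over all 234. For miR-574-3p the raw thresholds were 26.80, 26.11 and 25.36 cycles in C57BL/6J and 23.43, 23.28 and 24.83 in BTBR. For miR-666 they were 31.001, 30.94 and 31.20, and 27.06, 27.44 and 29.46. In all 3 neighbours, as in miR-484, BTBR replicates 1 and 2 were the earliest samples and BTBR replicate 3 lay nearer to the controls. These 6 points share their arrays and scaling, so the likeness is a description only.

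**Figure D2:**
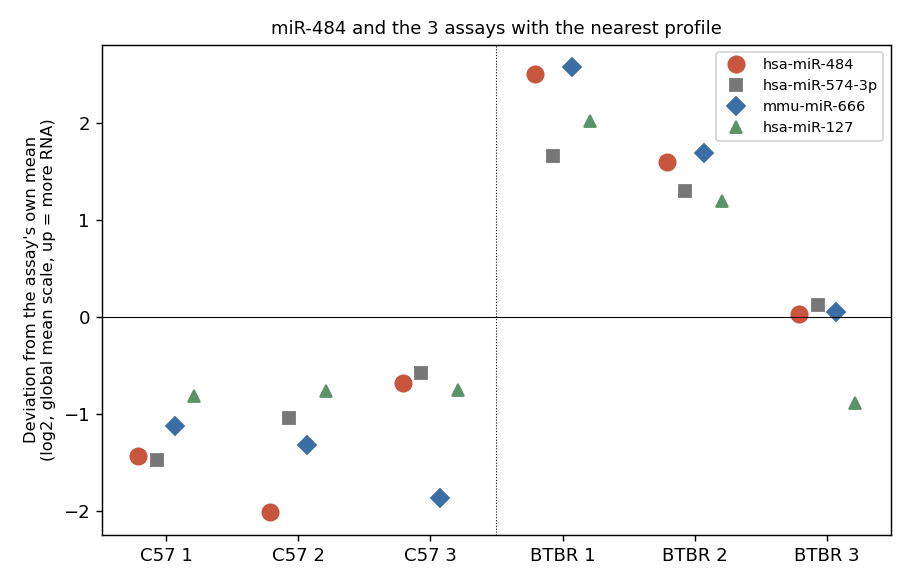
Deviation of each sample from the assay's own mean (vertical axis, log2 on the global mean scale, up means more RNA) for miR-484 and its 3 nearest assays in the 6 mice (horizontal axis). miR-484 stands at 2.51, 1.60 and 0.03 in BTBR replicates 1, 2 and 3, and miR-127 at 2.03, 1.20 and -0.89.

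hsa-miR-652 (002352) comes from an X-linked hairpin. All 3 C57BL/6J samples were undetermined. The BTBR samples read 17.18, 16.21 and 17.07 cycles, a mean of 16.82 ± 0.528 (SD, n = 3). On the authors' normalized values they read 17.02, 16.67 and 17.46 cycles. The spread among the BTBR mice was small, and BTBR replicate 3 did not stand apart here. No fold is given, since an undetermined reading sets no level. The authors' deposited table, which enters 40 for the C57BL/6J mean, gives a difference of mean thresholds of -22.95 cycles with an adjusted p of 0.00509.

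The pattern of miR-652 was not rare on this panel. Of the 750 assays, 30 (4%) had a reading in all BTBR and in no C57BL/6J sample, and 3 (0.4%) the reverse. Of the 30, 28 were in pool A, and 19 had a mean raw threshold in BTBR between 10 and 20 cycles. One more, mmu-miR-155, had a mean of 6.71 cycles, under the limit of 10 below which the authors set readings to undetermined. miR-652 had the 8th earliest mean of the 30 with that assay counted. The list held the broadly expressed hsa-let-7b (14.19 cycles), hsa-let-7f (15.85) and hsa-miR-103 (17.29). The main arm of miR-9, an miRNA abundant in brain, was also undetermined in the C57BL/6J mice and in BTBR replicate 3 and read 16.76 and 13.90 cycles in BTBR replicates 1 and 2. The other strand of the same hairpin, hsa-miR-9#, read between 13.49 and 14.09 cycles in all 6 samples. Of the same neuronal list, hsa-miR-124# went the other way, with 22.74, 21.70 and 13.68 cycles in C57BL/6J and no reading in the BTBR mice. Each miRNA assay had 1 reaction per sample, while 5 control RNAs (U6, Y1, U87, snoRNA135 and snoRNA202) had 16 spots each, 80 per sample. Of those 80 spots, 17, 19 and 21 were undetermined in the C57BL/6J samples and 2, 0 and 1 in the BTBR samples, together 23.8% and 1.25% (exact permutation test over samples, two-sided, p = 0.1, the smallest possible). This was so for all 5 controls, each of which was read at other spots of every sample, and the spots with a U6 reading had median thresholds averaging 14.33 cycles in control mice and 14.005 in the BTBR mice. Undetermined readings in the C57BL/6J samples thus also occurred for an RNA abundant there, U6, at 3, 3 and 5 of its 16 spots. U87 and snoRNA135 were less abundant, with median thresholds averaging 20.86 and 19.90 cycles in C57BL/6J. With 1 reaction per sample, little miR-652 and a reaction without a signal cannot be told apart, and no strain difference in miR-652 can be read from these values.

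**Figure D3:**
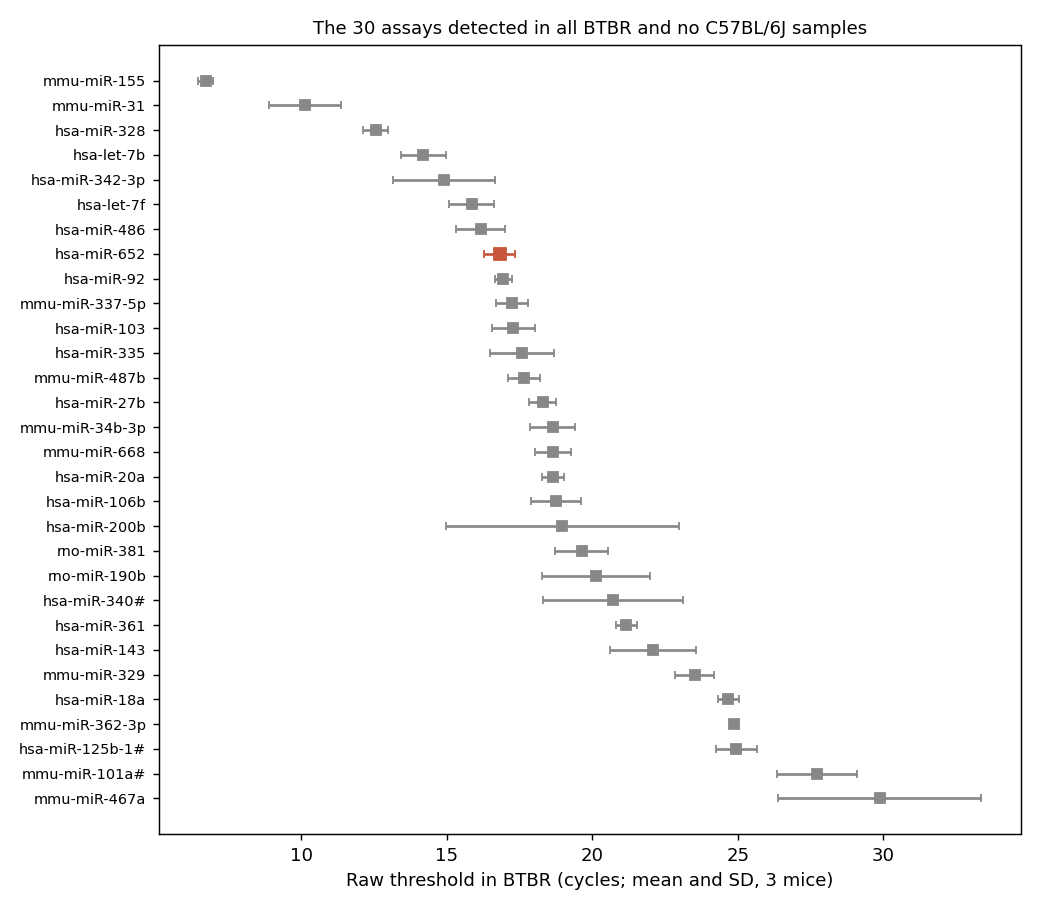
Raw thresholds in BTBR (horizontal axis, cycles, mean and SD of 3 mice) of the 30 assays (vertical axis) with readings in every BTBR mouse and none in C57BL/6J, with miR-652 larger and in colour. miR-652, at 16.82 cycles, is among the 19 assays with a mean between 10 and 20.

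miR-598 is enriched in brain, and its hairpin gave readings from both arms. The raw thresholds of mmu-miR-598 (002476) were 20.94, 21.73 and 21.33 cycles in C57BL/6J and 22.62, 22.47 and 21.37 in BTBR. BTBR replicates 1 and 2 were later than every control, and BTBR replicate 3 lay within the control range. The C57BL/6J mean was 21.33 ± 0.396 cycles and the BTBR mean 22.15 ± 0.679 (SD, 3 mice each; exact permutation test, two-sided, p = 0.2).

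The authors' normalized thresholds of mmu-miR-598 were 20.60, 20.91 and 20.60 cycles in C57BL/6J and 23.08, 23.82 and 21.66 in BTBR. The strains did not overlap, and the assay fell 4.42-fold in BTBR (log2 change -2.14, standard error 0.58, 95% interval -3.58 to -0.71, limma adjusted p = 0.0362). With global mean scaling the log2 change was -1.0 (standard error 0.50, 95% interval -2.24 to 0.24, limma adjusted p = 0.215). There the strains overlapped.

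The arm rno-miR-598-5p (002053) read 24.43 and 23.81 cycles in C57BL/6J replicates 1 and 2 and was undetermined in replicate 3. In BTBR it read 25.62, 25.15 and 24.62. All BTBR readings were later than both control readings, by 1.01 cycles on average. The normalized thresholds were 23.44 and 23.12 cycles in C57BL/6J and 26.39, 27.37 and 25.12 in BTBR, so that this arm fell 8.08-fold on 5 detected values, with the undetermined sample left out of the fit (log2 change -3.01, standard error 0.73, 95% interval -4.91 to -1.12, limma adjusted p = 0.0339). With global mean scaling the log2 change was -1.33 (standard error 0.41, limma adjusted p = 0.117). The authors' deposited table, which enters the undetermined reading as 40, gives 5.90-fold in the other direction (adjusted p = 0.756).

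The difference between the arms within a sample does not depend on how samples are scaled. mmu-miR-598 read earlier than the 5p arm by 3.495 and 2.08 cycles in C57BL/6J replicates 1 and 2. In BTBR replicates 1, 2 and 3 it read earlier by 3.00, 2.68 and 3.25 cycles. The BTBR values all lay between the control values, so the offset between the arms was not seen to differ between the strains at this spread. As assays differ in efficiency, the offset itself is not a ratio of the arms.

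On the authors' values the log2 changes of mmu-miR-598 and miR-598-5p stood at -1.02 and -1.89 relative to the median of all assays. Of the 231 assays, 32 and 8 had a still lower change. The 2 calls for miR-598 among the 4 members tested stand beside a panel in which 35.5% of the 231 assays passed as lower in BTBR. With 1 mouse fewer most of these calls were lost, while the changes stayed negative. Without BTBR replicate 1, BTBR replicate 2 or any single C57BL/6J replicate, mmu-miR-598 did not pass (log2 change between -2.25 and -1.66, limma adjusted p between 0.0698 and 0.0884), and without BTBR replicate 3 it did (log2 change -2.74, limma adjusted p = 0.0104). miR-598-5p did not pass without C57BL/6J replicate 3, BTBR replicate 1 or BTBR replicate 2 (log2 change -3.01, -2.96 and -2.47, limma adjusted p = 0.0685, 0.0815 and 0.0678) and could not be tested without C57BL/6J replicate 1 or 2. Without BTBR replicate 3 its log2 change was -3.6 (limma adjusted p = 0.0114).

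The assays nearest to mmu-miR-598 in profile were hsa-miR-1 (0.200 cycles), hsa-miR-125a-3p (0.210) and hsa-let-7i (0.241), against a median of 0.855 over 234 assays. In each of them BTBR replicates 1 and 2 were the latest samples. For hsa-let-7i the raw thresholds were 15.52, 15.78 and 15.30 cycles in C57BL/6J and 16.52, 16.37 and 15.60 in BTBR.

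hsa-miR-320 (002277) is made from a hairpin next to Polr3d, which encodes a subunit of RNA polymerase III. The raw thresholds were 19.66, 19.75 and 19.28 cycles in C57BL/6J and 20.61, 18.78 and 19.39 in BTBR. The latest and the earliest reading both came from BTBR, in replicates 1 and 2, and the means were 19.57 ± 0.248 and 19.59 ± 0.934 cycles (SD, n = 3 each; exact permutation test, two-sided, p = 1).

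On the authors' normalized values miR-320 read 19.37, 19.18 and 18.81 cycles in C57BL/6J and 20.87, 19.60 and 19.95 in BTBR, and the strains no longer overlapped. The log2 change there was -1.02 with a standard error of 0.42 (95% interval -2.05 to 0.02, limma adjusted p = 0.106). This lay 0.11 above the median of all assays. Quantile normalization replaces a threshold by a value set by its rank. miR-320 held ranks 85, 80 and 73 from the earliest among 340 assays in C57BL/6J and ranks 112, 89 and 95 in BTBR. Among the 340 assays ranked, 50 to 67 were undetermined in a C57BL/6J sample and 12 to 30 in a BTBR sample, and undetermined assays take the last ranks. On the global mean scale the log2 change was -0.21 (standard error 0.40, 95% interval -1.20 to 0.79, limma adjusted p = 0.755).

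Non-overlap on the authors' scale was common. In 3 of the 4 tested members, both miR-598 arms and miR-320, all BTBR thresholds were later (less RNA) than all C57BL/6J thresholds, as was so for 54.5% of the 231 assays. On the global mean scale this held for miR-598-5p alone of the 4, against 22.9% of assays.

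The assays nearest to miR-320 in profile were mmu-miR-339-3p (0.270 cycles), mmu-miR-376b# (0.283) and hsa-miR-324-5p (0.286), against a median of 0.700. In each of them BTBR replicate 1 had the latest reading, as in miR-320.

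**Figure D4:**
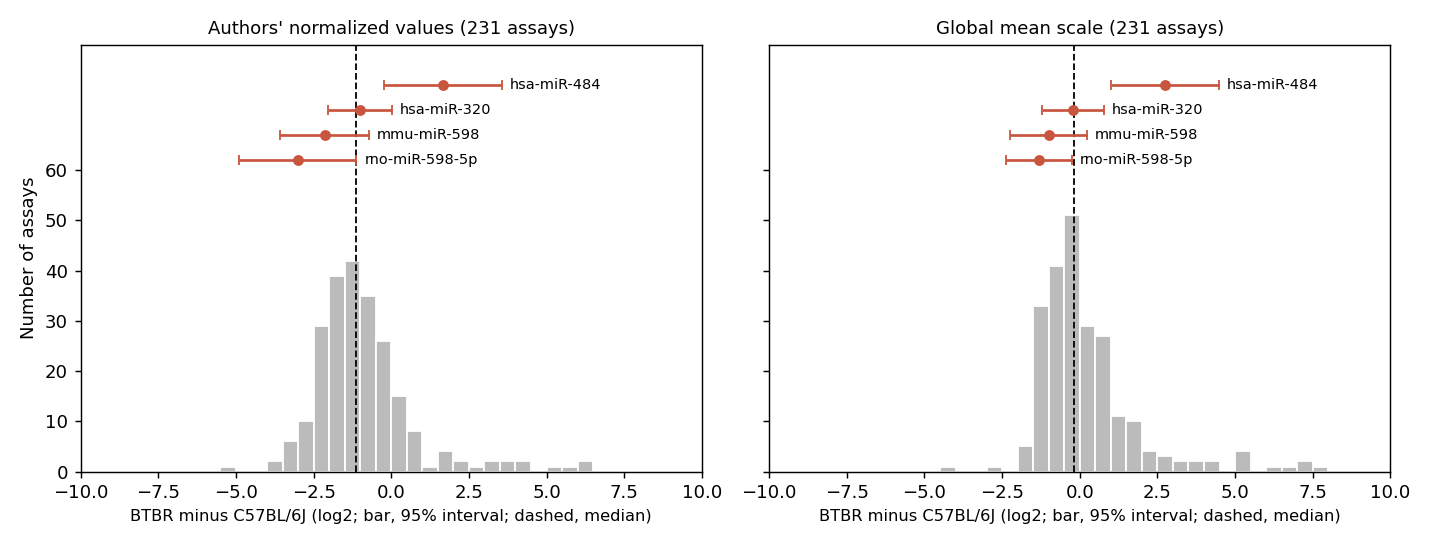
Number of assays (vertical axis) by log2 change, BTBR minus C57BL/6J (horizontal axis), on the authors' normalized values and on the global mean scale, with the 4 tested members above the histograms (point, change; bar, 95% interval) and the median of all 231 assays dashed. miR-484 lies to the right of the median on both scales (1.67 and 2.76), miR-320 on the median, and both miR-598 arms to the left.

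Differences between members within a sample are also free of the scaling, and were looked at after the values had been seen. miR-484 read later than miR-320 by 3.66, 3.89 and 2.74 cycles in C57BL/6J. In BTBR replicate 1 it read 1.47 cycles earlier than miR-320, and in BTBR replicates 2 and 3 it read 0.76 and 2.10 cycles later. The strains did not overlap, and the offset differed by -2.97 cycles between them (exact permutation test, two-sided, p = 0.1, 0.15 after Benjamini-Hochberg adjustment over 3 pairs). Against mmu-miR-598, miR-484 read later by 2.38, 1.91 and 0.69 cycles in C57BL/6J. In BTBR replicates 1 and 2 it read earlier by 3.47 and 2.94 cycles, and in replicate 3 later by 0.12, a difference of -3.76 cycles between the strains (exact permutation test p = 0.1, adjusted 0.15). The offset of mmu-miR-598 to miR-320 averaged 1.77 ± 0.428 cycles in control mice and 2.56 ± 0.984 in the BTBR mice (SD, 3 mice each; exact permutation test p = 0.4, adjusted 0.4), and the strains overlapped.

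MMU-MIR-432 (241135) was undetermined in all 6 samples, and no level can be given for it. In pool B, to which it belongs, 178 of 373 assays had no reading in any sample, against 107 of 377 in pool A. Its hairpin lies in Rtl1 beside those of miR-127, miR-136 and miR-434, within the imprinted Dlk1-Dio3 region, whose miRNAs come from the maternal chromosome. hsa-miR-127, from the same stretch, read 20.65, 20.34 and 20.04 cycles in C57BL/6J and 17.57, 17.88 and 20.36 in BTBR. BTBR replicates 1 and 2 were earlier than all controls, and BTBR replicate 3 was within their range. Its other arm, hsa-miR-127-5p, read between 23.80 and 27.91 cycles in C57BL/6J and between 26.48 and 27.48 in BTBR. hsa-miR-433 read 18.34, 18.20 and 17.56 cycles in C57BL/6J and 18.47, 18.17 and 17.90 in BTBR, with overlap, and mmu-miR-433-5p was undetermined throughout.

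The wider list from the cerebellar study in autism was recalled from the literature and could not be checked against that study, so every count over it holds for the list as recalled. It holds 28 miRNA names, of which 24 had an assay here, 40 assays in all. Of these, 26 could be tested, and 10 fell and 1 rose in BTBR on the authors' values, while 15 did not pass. Over the 231 assays 35.5% passed as lower and 1.3% as higher, so the list's share of lower calls was near that of the panel. The median log2 change of the 26 was -0.82, against -1.13 over the 231 assays. Without the members, 22 were tested, of which 8 fell and 1 rose, again near the panel's 35.5% for lower calls. In limma 0 of the 26 passed when the global mean was used, with 10 at an unadjusted p under 0.05 (median -0.20, against -0.18 over all). The count of 11 fell to 0 without C57BL/6J replicate 2 or 3 or without BTBR replicate 1 or 2, was 7 without C57BL/6J replicate 1, and was 13 without BTBR replicate 3.

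The largest fall among the other tested list assays was that of hsa-miR-381 of the Dlk1-Dio3 cluster (log2 change -3.74, limma adjusted p = 0.0301). Its change with global mean scaling was -1.64. A second assay for this miRNA, rno-miR-381, did not go with that fall. It read 19.93, 20.34 and 18.62 raw cycles in BTBR and was undetermined in every C57BL/6J mouse, so a fall of miR-381 rests on 1 of its 2 assays. rno-miR-148b-5p fell by 2.89 (limma adjusted p = 0.0265). The seed-sharing pair hsa-miR-15a and hsa-miR-15b, which restrain the cell cycle, changed by -2.13 and -1.73. hsa-miR-27a changed by -2.03, hsa-miR-93# by -1.99, the neuronal hsa-miR-129 by -1.67 and hsa-miR-539 by -1.06. All 8 assays that fell kept a negative sign on the global mean scale, between -1.64 and -0.33. Of the other arms, mmu-miR-93 changed by -0.17, mmu-miR-129-3p by -0.30 and mmu-miR-15a# by -1.86 on the authors' values (limma adjusted p = 0.823, 0.746 and 0.187). With global mean scaling these changes were 1.42, -0.03 and -0.18. hsa-miR-148b was outside the main fit and averaged 32.29 raw cycles in C57BL/6J and 28.32 in BTBR, with overlap. hsa-miR-15b# and hsa-miR-27a# had too few values for that fit.

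The 1 rise was that of mmu-miR-140, best known from cartilage, whose profile resembles that of miR-484. Its raw thresholds were 26.37, 26.44 and 25.44 cycles in C57BL/6J and 20.77, 20.85 and 23.37 in BTBR. The strains did not overlap, and BTBR replicate 3 was again nearest to the controls. The log2 change was 2.71 (standard error 0.73, limma adjusted p = 0.036) on the authors' values, and with global mean scaling it was 4.24 (limma adjusted p = 0.0737). The other arm of this hairpin, hsa-miR-140-3p, did not rise with it on the authors' values (log2 change -0.90, standard error 0.38, limma adjusted p = 0.109). With global mean scaling the change of hsa-miR-140-3p was 0.36 (limma adjusted p = 0.400).

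The activity-regulated pair hsa-miR-132 and mmu-miR-212, which share a transcript, did not pass, with log2 changes of 0.29 (standard error 0.29) and 0.65 (standard error 0.79). The neuronal hsa-miR-128a had a change of -0.60 (standard error 0.35). Outside the test, hsa-miR-106b and rno-miR-381 were, like miR-652, read in every BTBR mouse and undetermined in every C57BL/6J mouse, and hsa-miR-23a in all C57BL/6J and no BTBR samples. The assays hsa-miR-106b#, hsa-miR-23a# and MMU-MIR-432 were undetermined throughout, and the remaining 7 had too few readings in 1 or both strains.

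**Figure D5:**
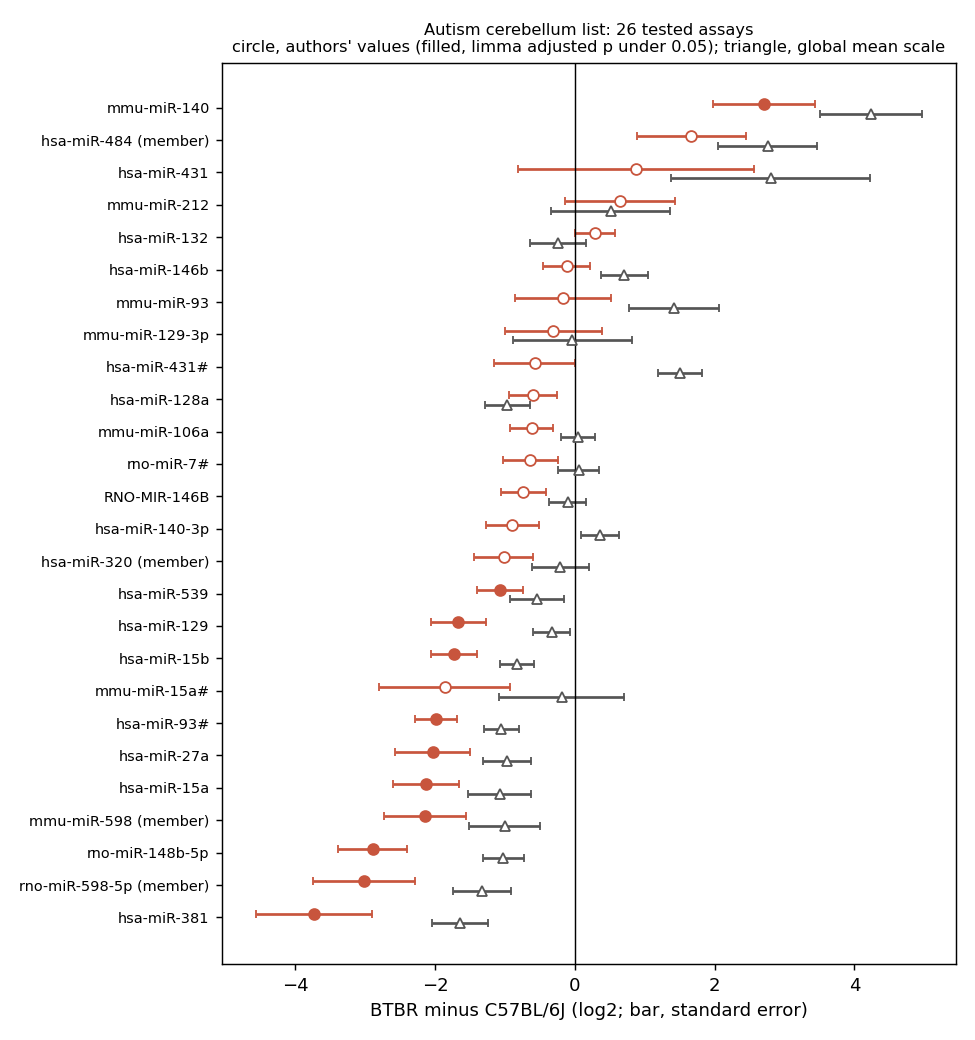
Log2 change, BTBR minus C57BL/6J (horizontal axis, bars are standard errors), of the 26 tested assays of the autism cerebellum list (vertical axis), on the authors' values (circles, filled where limma's adjusted p was under 0.05) and on the global mean scale (triangles). On the authors' values 10 filled circles lie below 0 and 1, mmu-miR-140, above it, while 0 assays passed on the global mean scale.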

How the data were processed

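The raw table holds cycle thresholds of 750 miRNA assays and 96 control lines. The second table holds quantile-normalized thresholds of 306 assays deposited by the authors. Rebuilding it matched the deposited values to within 3.33e-09 cycles: readings under 10 were set to 40, 340 assays with at least 3 readings were ranked with 40 as a value, and normalized values above 29.19 were set to 40. The authors' deposited comparison gives a fold (ratio), a log2 difference of thresholds, a test score and p-values, whose variant the sources used here do not give.

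Normalized thresholds were negated to a log2 scale, 40 was taken as missing, and assays with at least 2 values per strain (231) were fitted with limma 3.58.1 in R 4.3.3, strain as the only term, Benjamini-Hochberg adjustment over all 231 and a threshold of 0.05. The fit was tested on simulated data with 60 of the 231 assays changed. It recovered 19.9%, 60.5% and 74.6% of changes of 1, 2 and 3 cycles, so an assay that did not pass may still differ. Single values were compared by exact permutation over the 6 mice. Thresholds carry no counting depth: 1 PCR per assay and 3 mice per strain limit the precision. The sources used here do not say which mice shared an array. Control readings are sorted within each sample in the deposited file, so single control spots cannot be matched between samples.

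The members and lists were chosen with earlier results of these data known. Named assays are all members, list members that passed, the 3 nearest profiles of each member read in all samples, and miR-127 and miR-433. miR-140's resemblance to miR-484, the broadly expressed assays, miR-9, miR-124#, list members that did not pass and the differences within samples were named after their values were seen. Alternatives covered scaling, the treatment of 40, the detection filter, single replicates, a replicate block and robust eBayes.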

Additional observations from a re-analysis of the deposited data

Results flagged for a closer look

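hsa-miR-652 was read at a mean raw threshold of 16.82 cycles in BTBR and was undetermined in all C57BL/6J samples, so the fitted comparison could not include it. It is listed here because an assay outside the test gave readings in 1 strain and none in the other, so no level can be set for C57BL/6J. Of the control RNA spots, 23.8% were undetermined in C57BL/6J and 1.25% in BTBR. With 1 reaction per sample, little miR-652 and a reaction without a signal cannot be told apart, so no strain difference is read from it. Which of these applies was not tested.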

How the results depend on the processing

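On the authors' values 85 assays, 2 members and 11 assays of the autism list passed in limma. Under 6 other scalings (global mean over the same cells, global mean over all raw readings, global mean within pool, raw thresholds without scaling, the median of the U6 spots with a reading, and the authors' values after median centring) 1, 0, 1, 0, 0 and 2 assays passed, with 49 to 74 at an unadjusted p under 0.05, and 0 members and 0 list assays passed under each, with 1 or 2 members and 7 to 11 list assays at an unadjusted p under 0.05. With 40 kept as a value, 26 assays passed as higher and 70 as lower, against 3 and 82. The 1 member of 5 that passed there was miR-652, as higher, and neither miR-598 assay did (adjusted p = 0.0561 and 0.704). With at least 3 values per strain 1 of 3 members passed. Leaving out 1 replicate gave 0 to 101 assays, 0 to 3 members and 0 to 13 list assays. With the replicate block, 49 assays, 1 member and 7 list assays passed; mmu-miR-598 no longer passed. No label says that the replicate numbers pair the samples. The correlations of same-numbered deviations were 0.08, 0.42 and -0.001, and those of other pairs ran from -0.38 to 0.26. With 3 mice per strain these values cannot decide whether the samples were paired. Signs turned for miR-598-5p, to 2.56 with 40 kept as a value, and for miR-320, to 0.16 after centring on sample medians. Neither passed there. The first setting enters the undetermined reading of miR-598-5p in C57BL/6J replicate 3 as 40, and the second takes out the differences between sample medians. mmu-miR-598 was negative and miR-484 positive in every alternative. Readings near 40 and undetermined readings carry no order, which limits miR-432, miR-598-5p and miR-652.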
